A study of Mus musculus with 6 samples.

Results

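The 10 genes described here stand for the Nrf2 antioxidant response: the transcription factor Nrf2 itself (gene Nfe2l2), its inhibitor Keap1, and the target genes Nqo1, Gclc, Gclm, Gsr, Gpx2, Txnrd1, Srxn1 and Hmox1. They were picked by name, as textbook parts of the pathway, out of 19938 genes measured on Affymetrix mouse arrays. Earlier results of these data were known when they were picked. Each of the 10 was read by 1 probe set, the group of short DNA probes that an array averages into 1 value, and each value is a log2 signal, so that a difference of 1 is a doubling. The study compared intestinal crypts of 3 mice labelled YAP Tg with those of 3 mice labelled Control, with 1 array per mouse. By the series title the YAP Tg mice carry YAP-S127A together with Villin-rtTA, a doxycycline-controlled activator under the villin promoter, which is active in the intestinal epithelium. YAP-S127A is a form of the coactivator YAP that the Hippo kinases cannot inhibit at that serine. The design text speaks of mice on doxycycline for 2 days without naming the groups, so whether Control mice received it, the transgenes they carry, and the strain, age and sex of all mice, were not given in the sources used here. Crypts were released with EDTA and not cultured, so other cells of the tissue, which the villin promoter does not drive, can be part of the RNA.

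Nrf2 is held low in resting cells because Keap1 ties it to the Cul3 ubiquitin ligase, which marks it for destruction. Oxidants and electrophiles modify cysteines of Keap1. Nrf2 then accumulates, pairs with a small Maf protein and binds antioxidant response elements (AREs) in genes for glutathione and thioredoxin metabolism, quinone reduction and heme breakdown. In the gut these genes handle reactive compounds from food and microbes. Because Nrf2 is controlled mostly through protein stability, the RNA level of Nfe2l2 is not a measure of its activity.

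The genes did not move as a block. In YAP Tg crypts the transcript of Nrf2 fell 1.65-fold and that of Nqo1, a quinone reductase widely used as a readout of the pathway, fell 4.55-fold, while that of Hmox1, heme oxygenase 1, rose 3.85-fold. The other 7 genes did not pass the test. By limma's test with Benjamini-Hochberg adjustment over all genes (adjusted p below 0.05), 2 of the 10 were lower and 1 was higher, against 6.70% of all genes lower and 7.50% higher. The median log2 change of the 10 genes was -0.11, beside 0.03 for all genes. With 10 genes, these counts do not set the pathway apart from the array as a whole.

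Promoter sequences show which of these genes carry the letters of an ARE core near their start. RefSeq's promoter table for the mouse build GRCm38.p6, from 250 bases before to 50 after each start, matched 7 of the 10 genes with 9 windows, Txnrd1 having 3. It held no window for Gclc, Gsr and Hmox1, which were therefore not searched. The core TGACNNNGC, on either strand, was found in 4 of the 9 windows, in Nfe2l2, Gclm, Txnrd1 and Srxn1, against 12.4% of all 32851 windows. TGACTCA, the AP-1 site, which resembles the ARE and can overlap it, was in 1 of the 9, in Srxn1, against 5.20% of all windows. ACATTCC, a form of the site of the TEAD proteins through which YAP acts, was in none of the 9 and in 3.85% of all windows. The stretches below, each of 100 bases and lying before the start, all hold a match. They set the 2 genes that fell, Nfe2l2 and Nqo1, beside 3 that did not pass the test. The windows of Keap1 and Gpx2, which did not pass either, held none of the letters searched and are not shown. Capitals mark the ARE core or its complement in Nfe2l2, Gclm and Txnrd1, the complement of the AP-1 site at 2 places in Srxn1, and the TATA box letters TATAAA in Nqo1, whose window holds no ARE core. Bases further than 250 before the start were not searched, so an ARE of Nqo1 there would be missed. TATAAA was in 1 of the 9 windows and in 13.6% of all windows.
Nfe2l2 (chr2:75704814-75704913, minus strand): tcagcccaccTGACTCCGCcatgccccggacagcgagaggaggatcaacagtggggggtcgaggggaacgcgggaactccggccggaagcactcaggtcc
Nqo1 (chr8:107403206-107403305, minus strand): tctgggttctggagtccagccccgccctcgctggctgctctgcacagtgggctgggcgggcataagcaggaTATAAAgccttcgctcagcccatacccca
Gclm (chr3:122245377-122245476, plus strand): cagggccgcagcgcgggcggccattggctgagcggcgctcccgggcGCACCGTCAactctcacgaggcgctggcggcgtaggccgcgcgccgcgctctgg
Txnrd1 (chr10:82859068-82859167, plus strand): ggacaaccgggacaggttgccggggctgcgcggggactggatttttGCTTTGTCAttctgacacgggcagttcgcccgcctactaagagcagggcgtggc
Srxn1 (chr2:152105404-152105503, plus strand): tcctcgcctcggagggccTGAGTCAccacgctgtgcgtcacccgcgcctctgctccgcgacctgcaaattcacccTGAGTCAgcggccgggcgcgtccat

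The ARE core of Nfe2l2 begins 240 bases before the start and that of Gclm 134 bases before it. In Txnrd1 it begins 92 bases before 1 of the 3 starts, and the windows of the others held no core. In Srxn1 the core begins at base 29 of the transcript and is not in the stretch shown. These matches describe letters in a short window, and binding of any factor was not measured. Genes with the core were among those that fell (Nfe2l2) and among those that did not pass the test (Gclm, Txnrd1 and Srxn1). Genes with no core in their window were likewise among those that fell (Nqo1) and those that did not pass (Keap1 and Gpx2). Hmox1, the gene that rose, had no window and was not searched.

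The arrays themselves differed between the groups in ways that touch the values below. On the first principal component of all genes, which held 75.0% of the variance, YAP Tg mice 1, 2 and 3 stood at 58.9, 18.8 and 34.8 and the Control mice at -40.4 to -35.3. On the second, with 13.4% of the variance, YAP Tg mouse 2 stood apart at -36.1, against 11.7 and 12.5 for the other YAP Tg mice and 2.08 to 6.36 for the Control mice. The median of the array control probe sets, a reference for low signals, was 5.33, 5.15 and 5.03 in YAP Tg mice 1, 2 and 3. In Control mice it was 4.97 to 4.99. Its part in small rises of dim genes was not tested. The targeted gene did not check the labels: Yap1 gave 8.98, 9.27 and 9.25 in YAP Tg mice and 9.43, 9.48 and 9.30 in Control mice (log2 change -0.24, limma's adjusted p = 0.184), and the labels do not say whether its probe set covers the transgene. The YAP target Ccn1 was higher in YAP Tg crypts by 4.49 on the log2 scale (limma's adjusted p = 2.1e-05).

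Marker genes of several cell types also differed between the groups. Of all genes, 7.50% rose and 6.70% fell. Of 8 epithelial markers 4 rose and none fell, and the log2 of their summed signal was 15.5 to 15.6 in YAP Tg and 15.1 to 15.2 in Control crypts. All 6 stem cell markers fell (10.4 to 11.6 against 13.5 to 13.6). Of 8 enterocyte markers 2 fell (15.6 to 16.0 against 16.1 on all Control arrays), and of 6 Paneth cell markers 2 fell (14.3 to 14.6 against 14.6 to 15.0). Among 9 T cell markers 8 rose (14.1 to 14.5 against 12.8 to 13.0), while of 12 macrophage markers 5 rose and 1 fell (10.5 to 10.8 on both sides). Of 4 erythroid markers 1 fell and of 7 stromal markers 1 rose. No marker of these lists lay below the median of the array control probe sets on all 6 arrays. The macrophage marker Adgre1, however, lay below it on every array but that of YAP Tg mouse 1. Another, Cd163, lay near it on all arrays. In such bulk RNA, fewer cells of a type and less RNA per cell cannot be told apart, and the part of these shifts in the changes below was not tested.

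Nfe2l2, the transcription factor at the head of the pathway, had log2 signals of 11.05, 11.50 and 11.36 in YAP Tg mice, against 12.14, 11.98 and 11.95 in Control mice. All 3 YAP Tg values lay below all Control values, with mouse 1 lowest and mouse 2 nearest to the controls. The log2 change came to -0.72 (SE 0.13, adjusted p = 0.0179 by limma, 3 mice per group). The call depended on single arrays: it was lost without Control mouse 1, 2 or 3 or YAP Tg mouse 3 (limma's adjusted p = 0.0575 to 0.0867), with changes of -0.66 to -0.76.

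Keap1, the sensor that binds Nrf2, had 8.06, 8.33 and 8.08 in YAP Tg mice and 8.38, 8.48 and 8.34 in Control mice. The groups did not overlap, but YAP Tg mouse 2 lay within 0.02 of the lowest Control value. The log2 difference was -0.24 (95% interval -0.48 to -0.01 before adjustment, limma's adjusted p = 0.155). Without YAP Tg mouse 2 it was -0.33 and passed the test (limma's adjusted p = 0.0202). Neither the factor nor its inhibitor had a higher transcript signal in YAP Tg crypts.

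**Figure D1:**
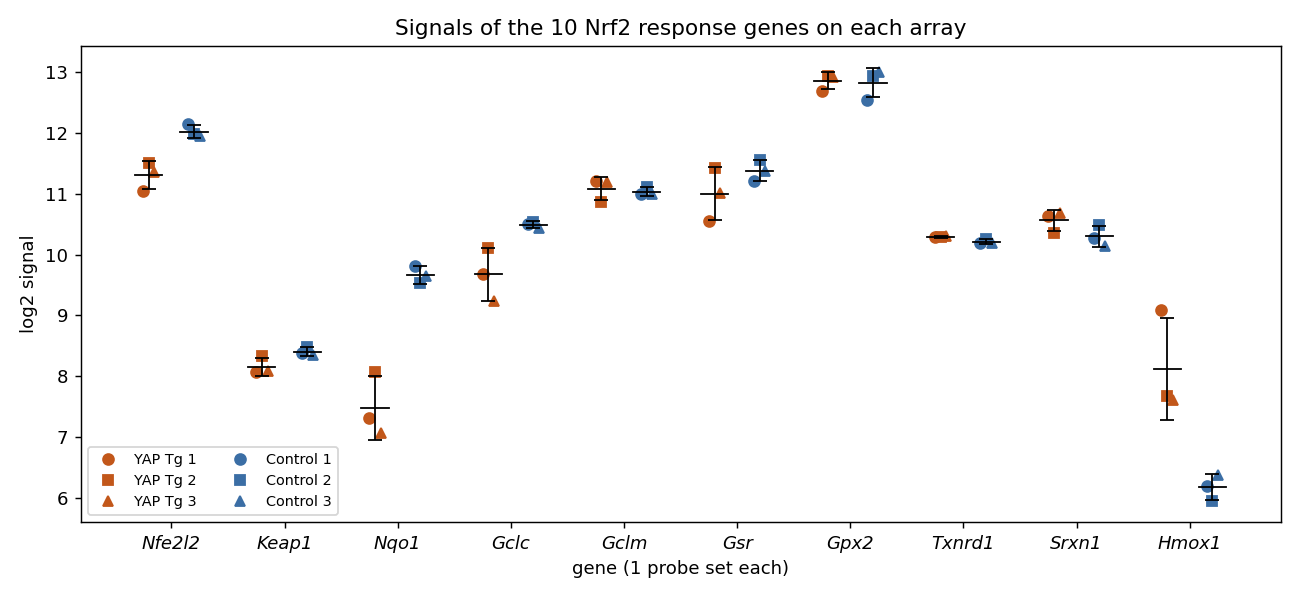
Log2 signal of each gene (x axis) on each array, with YAP Tg mice in orange left of Control mice in blue, marker shapes for the mouse number, and black bars for the mean ± SD of 3 mice. Nqo1 and Hmox1 show the widest gaps between the groups, and the genes from Gclm to Srxn1 other than Gsr lie close together in both.

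Nqo1 reduces quinones in a single step that avoids reactive intermediates. Its signals were 7.30, 8.07 and 7.06 in YAP Tg mice and 9.81, 9.53 and 9.65 in Control mice. Every YAP Tg mouse lay at least 1.46 log2 units below every Control mouse, and mouse 2 was again the nearest. The log2 difference of -2.18 (SE 0.26, adjusted p = 0.00423 by limma) was called in all 13 refits with another sample set, scaling, filter or model, where it ran from -2.48 to -1.98.

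Gclc and Gclm encode the catalytic and the modifier subunit of glutamate-cysteine ligase, the first and limiting step of glutathione synthesis. Gclc had 9.68, 10.11 and 9.24 in YAP Tg mice, against 10.50, 10.54 and 10.44 in Control mice. The 3 Control values lay within 0.11 of each other and the YAP Tg values, all lower, were spread widely, with mouse 3 lowest. Its difference of -0.81 (95% interval -1.33 to -0.30 before adjustment) missed the threshold (limma's adjusted p = 0.0537). Without YAP Tg mouse 2 it was -1.03 with limma's adjusted p = 0.00497.

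Gclm, in contrast, had 11.20, 10.87 and 11.19 in YAP Tg mice and 10.99, 11.12 and 10.99 in Control mice. The groups overlapped, with 2 YAP Tg mice above all controls and mouse 2 below them. The difference was 0.05 (95% interval -0.22 to 0.32, limma's adjusted p = 0.789), and its sign turned to -0.01 without YAP Tg mouse 1. Of the 2 subunits of this enzyme, Gclc thus stood just short of the threshold and Gclm near 0, though the contrast between them was not tested.

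Gsr, the reductase that restores oxidised glutathione, had 10.56, 11.43 and 11.01 in YAP Tg mice and 11.21, 11.56 and 11.37 in Control mice. Mouse 2 lay among the controls and the other two YAP Tg mice below them. The difference of -0.38 did not pass (95% interval -0.92 to 0.16, limma's adjusted p = 0.308), and without mouse 2 it was -0.59 (limma's adjusted p = 0.0476).

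Gpx2, the glutathione peroxidase of the gastrointestinal epithelium, had 12.70, 12.95 and 12.93 in YAP Tg mice, against 12.55, 12.94 and 13.01 in Control mice. The 2 sets of values lay over the same range. The difference was 0.03 with an interval of -0.32 to 0.37 (limma's adjusted p = 0.921), so a change of more than 1.30-fold either way lies outside the interval. Its sign changed without Control mouse 1 (-0.11) and without YAP Tg mouse 2 (-0.02) or 3 (-0.01).

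Txnrd1, the cytosolic reductase of thioredoxin, gave the smallest spread of the 10 genes: 10.29, 10.29 and 10.31 in YAP Tg mice and 10.19, 10.26 and 10.20 in Control mice. The YAP Tg values all lay above the Control values, yet by very little, and the difference was 0.08 (95% interval -0.07 to 0.23, limma's adjusted p = 0.427). Srxn1, which repairs overoxidised peroxiredoxins, had 10.64, 10.36 and 10.69 in YAP Tg mice, against 10.28, 10.49 and 10.14 in Control mice. YAP Tg mice 1 and 3 were above all controls and mouse 2 was among them. Its difference was 0.26 (95% interval -0.05 to 0.57, limma's adjusted p = 0.232).

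Hmox1 breaks heme down to biliverdin, iron and carbon monoxide, and responds to heme and inflammation as well as to Nrf2. Its signals were 9.09, 7.67 and 7.60 in YAP Tg mice and 6.20, 5.95 and 6.38 in Control mice. The groups were separate, and mouse 1 stood 1.42 log2 units or more above the other two YAP Tg mice. The log2 change came to 1.95 (SE 0.40, adjusted p = 0.0268 by limma). It stayed positive in all 13 refits, at 1.46 to 2.21, though several of these could not alter the size of the change. The call was lost without Control mouse 1, 2 or 3 (limma's adjusted p = 0.0945 to 0.115).

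Macrophages that clear red cells also make Hmox1. Among the macrophage markers Csf1r (0.85), Cd68 (0.61), Mrc1 (0.74), C1qb (1.48) and C1qc (0.68) rose and Itgam fell by 0.43 on the log2 scale. The other 6 of the 12 markers did not pass. Of all 12, 3 had a change below 0: Itgam, Lyz2 (-0.37) and Cd14 (-0.33). The 2 summaries of the list differed. The mean log2 signal over the 12 markers was 6.47 to 6.71 in YAP Tg and 6.18 to 6.32 in Control crypts. The log2 of their summed signal, where bright markers weigh most, was 10.5 to 10.8 in both groups. Lyz2 was the brightest of the 12 on every array and weighed most in this sum. It had 9.47, 9.53 and 9.27 in YAP Tg mice and 10.03, 9.39 and 9.97 in Control mice. The sum thus says little about the dimmer markers that rose. Whether macrophages took part in the rise of Hmox1 was not tested.

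**Figure D2:**
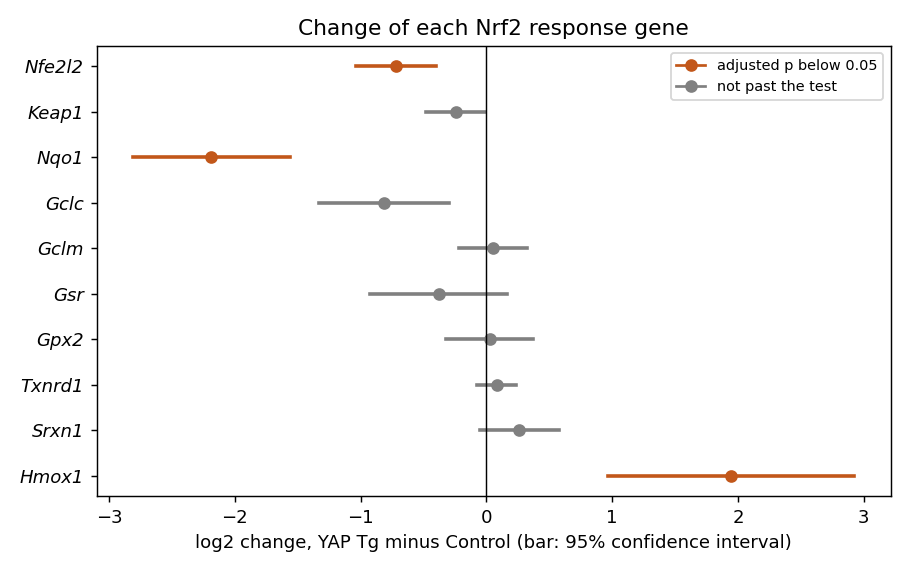
Log2 change of each gene (YAP Tg minus Control, dots) with its 95% confidence interval before adjustment (bars), in orange where limma's adjusted p was below 0.05. Nqo1 (-2.18) and Nfe2l2 (-0.72) lie left of 0 and Hmox1 (1.95) right of it, while Gclm, Gpx2 and Txnrd1 sit within 0.1 of it.

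Among the 10 genes, 4 had all YAP Tg values below all Control values (Nfe2l2, Keap1, Nqo1 and Gclc), against 17.0% of all genes, and 2 had them above (Txnrd1 and Hmox1), against 16.5%. Mouse 2 was the YAP Tg mouse nearest to the Control mean in 6 of the 10 genes, namely Nfe2l2, Keap1, Nqo1, Gclc, Gsr and Srxn1. This was not counted over all genes. On their first principal component mouse 2 (18.8) was also nearer to the Control mice than mouse 3 (34.8) or 1 (58.9), so it is not a trait of these genes alone. For Hmox1 mouse 2 was close to mouse 3, and mouse 1 stood apart. The standard deviation was larger among YAP Tg than among Control mice for 8 of the 10 genes, where 75.1% of all genes did the same. The number of the 10 genes called lower was 1 without any one Control mouse or YAP Tg mouse 3, and 5 without YAP Tg mouse 2, when Keap1, Gclc and Gsr joined. The share of all genes called lower moved the same way, to 1.85%, 2.11% and 2.32% without Control mouse 1, 2 or 3, 4.07% without YAP Tg mouse 3 and 19.5% without YAP Tg mouse 2. None of the 10 was called higher without any one Control mouse, when 3.38%, 3.70% and 3.36% of all genes were without Control mouse 1, 2 or 3.

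**Figure D3:**
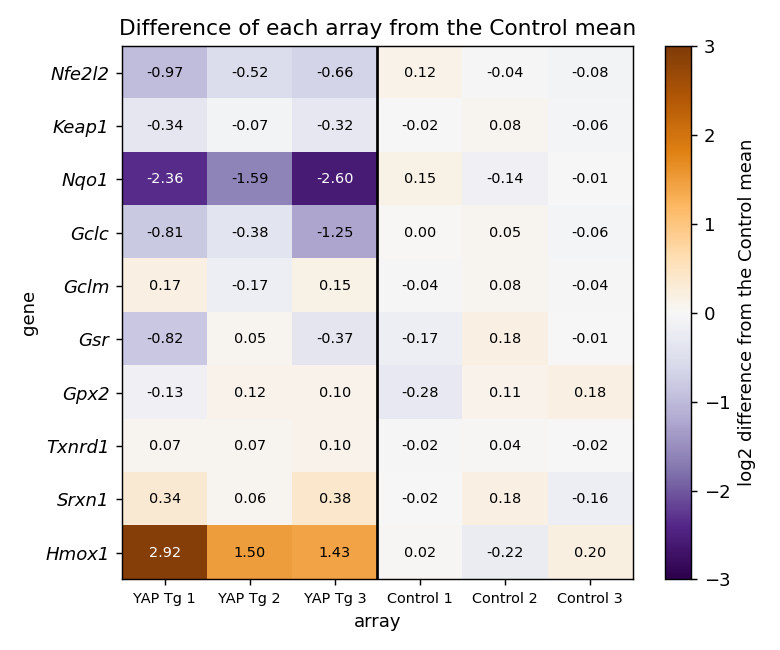
Difference of each array (columns, YAP Tg left of Control) from the Control mean of each gene (rows), on the log2 scale and printed in each cell. In the 3 YAP Tg mice Nqo1 differs by -2.60 to -1.59 and Hmox1 by 1.43 to 2.92, and among the YAP Tg columns that of mouse 2 is the palest for the genes from Nfe2l2 to Gclc.

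The partners and regulators of Nrf2 held 3 of 16 genes that rose and none that fell, against 7.50% and 6.70% of all genes. The list's median log2 change was 0.10. Maff, a small Maf protein that pairs with Nrf2 or with Bach1, had 7.57, 7.18 and 7.38 in YAP Tg mice and 5.84, 6.24 and 6.05 in Control mice, which is a rise of 1.33 (SE 0.14, adjusted p = 0.00299 by limma). Mafk, of the same family, changed by 0.67 (limma's adjusted p = 0.0299), a call lost without any one Control mouse or YAP Tg mouse 3. Bach2, a repressor that binds related elements with small Mafs, changed by 0.51 (limma's adjusted p = 0.0083). Its signals were low, with 6.39, 6.36 and 6.23 in YAP Tg mice and 5.85, 5.78 and 5.83 in Control mice. Bach1, the heme-sensing repressor of Hmox1, differed by 0.41 without passing (adjusted p = 0.114), as did the third small Maf, Mafg (0.13, adjusted p = 0.299), and Nfe2l1, a relative of Nrf2 (0.09, adjusted p = 0.658). The 3 calls became 2 without any one Control mouse or YAP Tg mouse 3, and 5 without YAP Tg mouse 2.

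Of 21 glutathione genes outside the 10, 3 rose and 2 fell, against 7.50% and 6.70% of all genes (median -0.09). Gss, which completes glutathione synthesis after the Gclc and Gclm step, had 10.61, 10.72 and 10.67 in YAP Tg mice and 9.96, 10.12 and 10.17 in Control mice. It rose by 0.58 (SE 0.08, limma's adjusted p = 0.00799), with no overlap between the groups. Chac1, which degrades glutathione, rose by 0.69, and Glo1, a glyoxalase named after its value was seen, by 0.28. Hagh, the other glyoxalase, changed by -1.24 (SE 0.24) and Slc3a2, the heavy chain of the cystine importer and of other amino acid transporters, by -0.51 (SE 0.08). The cystine-carrying light chain of that importer, Slc7a11, a classical Nrf2 target, had low signals in both groups, 5.06 to 5.67 in YAP Tg and 4.78 to 5.19 in Control mice, near the 5.03 to 5.33 and 4.97 to 4.99 that were the medians of the array control probe sets, and did not pass (0.44, limma's adjusted p = 0.17). The peroxidases Gpx1 (-0.31, adjusted p = 0.0915) and Gpx4 (0.15, adjusted p = 0.559) did not pass either. Without Control mouse 1, 2 or 3 the 5 calls became 2, 1 and 1, Gss being called each time, and without YAP Tg mouse 2 they became 9. Hagh, Slc3a2 and Glo1 lost their call without any one Control mouse, Hagh also without YAP Tg mouse 1 and Glo1 without YAP Tg mouse 1 or 3, and Chac1 without Control mouse 2 or 3 or YAP Tg mouse 3. Glo1 was called in 4 of the 13 refits.

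Of 17 thioredoxin genes, 4 were down and 1 was up, against 6.70% and 7.50% of all genes (median -0.26). Sesn1, a sestrin that restrains growth signalling under stress, had 8.64, 8.55 and 8.73 in YAP Tg mice, against 10.12, 9.90 and 9.70 in Control mice (log2 difference -1.27, SE 0.12, adjusted p = 0.00222 by limma). Sesn2, its stress-induced relative, changed by -0.40 and Sesn3 by 0.45, so the sestrins went in both directions. Msra, which repairs oxidised methionine, changed by -0.82 and Prdx4, the peroxiredoxin of the endoplasmic reticulum, named after its value was seen, by -0.94. Thioredoxin itself, Txn1, differed by -0.02 (adjusted p = 0.895) and Prdx1, a Nrf2 target, by -0.25 (adjusted p = 0.0634). The 5 calls became 2, 2 and 3 without Control mouse 1, 2 or 3, 3 without YAP Tg mouse 3 and 11 without YAP Tg mouse 2; Sesn1 and Sesn3 were called in all 13 refits. Msra and Prdx4 lost their call without any one Control mouse, Prdx4 also without YAP Tg mouse 3, and Sesn2 without Control mouse 1 or 2 or YAP Tg mouse 1 or 3.

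Of 9 genes that supply NADPH, the reducing power of both systems, 1 fell and none rose (median -0.17), against 6.70% and 7.50% of all genes. Idh1, cytosolic isocitrate dehydrogenase, had 10.80, 11.05 and 10.90 in YAP Tg mice and 12.18, 12.01 and 12.02 in Control mice, a log2 difference of -1.15 (SE 0.09, adjusted p = 0.00136 by limma). Without YAP Tg mouse 2 or 3 the list held 4 or 2 calls. In heme and iron handling, 1 of 9 genes rose and 3 fell (median -0.23), against 7.50% and 6.70% of all genes. Abcg2, an exporter of porphyrins and drugs, rose by 1.13 (SE 0.14, limma's adjusted p = 0.00508), with 10.75, 10.21 and 10.52 in YAP Tg mice against 9.38, 9.36 and 9.35 in Control mice. Blvrb, a biliverdin reductase downstream of heme oxygenase, changed by -0.56, Fech, which completes heme synthesis, by -0.43, and Abcb6, a porphyrin transporter, by -0.96. These 3 decreases lost their call without Control mouse 1 or 3; Fech and Abcb6 did so also without Control mouse 2 or YAP Tg mouse 1, and Abcb6 without YAP Tg mouse 3. The 4 calls of the list became 1, 2 and 1 without Control mouse 1, 2 or 3 and 2 without YAP Tg mouse 1. The constitutive heme oxygenase, Hmox2, differed by 0.00 (adjusted p = 0.989).

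**Figure D4:**
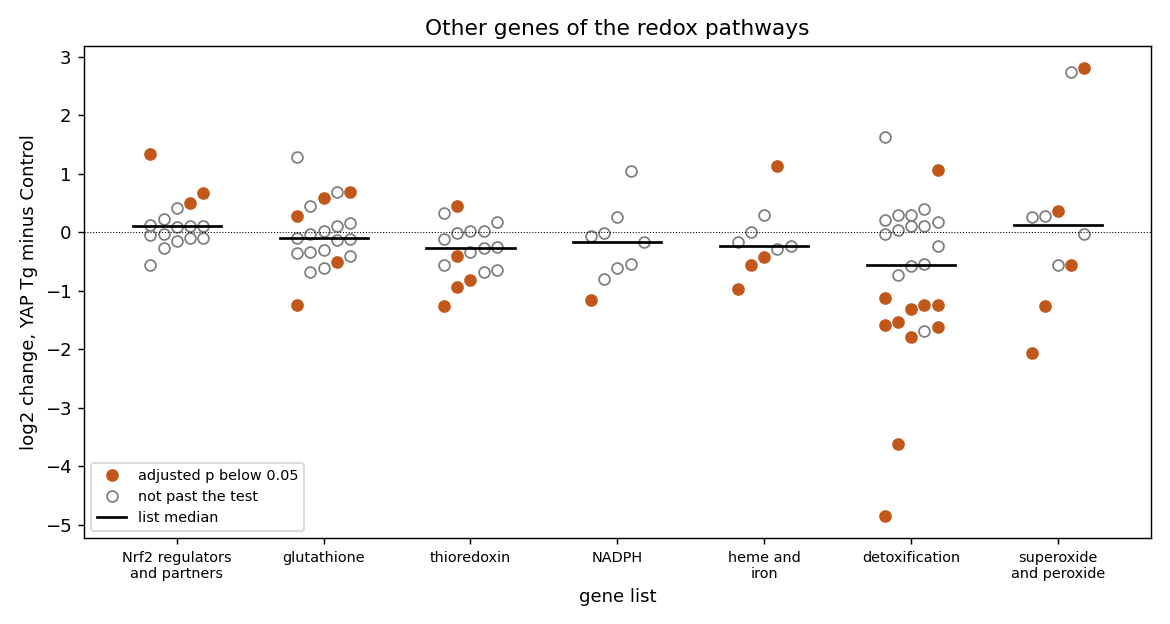
Log2 change (y axis, YAP Tg minus Control) of each gene in 7 lists of redox genes (x axis), filled where limma's adjusted p was below 0.05, with a black line at each list's median. Detoxification has the lowest median (-0.56) and reaches -4.85, and the other 6 medians lie between -0.26 and 0.12.

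Detoxification genes, several of them known Nrf2 targets like Nqo1, fell in part. Of 26, 10 were lower and 1 was higher, against 6.70% and 7.50% of all genes, with a median of -0.56. The glutathione transferase Gstm1 had 6.68, 7.41 and 7.14 in YAP Tg mice and 11.23, 10.18 and 10.63 in Control mice, a log2 difference of -3.61 (SE 0.30, adjusted p = 0.00148 by limma). Gstm3 changed by -4.85 on both of its probe sets and Gstm4 by -1.59. The microsomal transferase Mgst2, named after its value was seen, changed by -1.62. Genes of the Gstm family are similar enough in sequence that their probe sets may share signal. Nqo2, the paralog of Nqo1, also named afterwards, changed by -1.23 (limma's adjusted p = 0.0195), a call lost without any one Control mouse or YAP Tg mouse 3. The exporter Abcc3 was the gene that rose (1.05, SE 0.10, limma's adjusted p = 0.00206). The 11 calls became 6 without Control mouse 1 or 3, while Gstm1, Gstm3, Gstm4, Mgst2 and Abcc3 were called in all 13 refits.

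Of 10 enzymes that make or remove superoxide and peroxide, 2 rose and 3 fell, against 7.50% and 6.70% of all genes (median 0.12). Cat, catalase, had 10.66, 11.00 and 11.60 in YAP Tg mice, against 12.55, 12.16 and 12.32 in Control mice (log2 difference -1.25, SE 0.25, adjusted p = 0.0225 by limma). Sod1, the cytosolic superoxide dismutase, changed by -0.55 and Nox1, an epithelial NADPH oxidase, by -2.06, while the extracellular dismutase Sod3 rose by 0.36. Sod3 had low signals, 6.36, 6.23 and 6.29 in YAP Tg mice and 6.06, 5.85 and 5.89 in Control mice. Nox1 had 7.10, 8.10 and 6.68 in Control mice. In YAP Tg mice it had 5.33, 5.27 and 5.09, near the array control medians of 5.33, 5.15 and 5.03. The dim signal thus limits how well the size of its change is known. Duox2, the hydrogen peroxide source of the gut surface, named after its value was seen, had 12.02, 11.05 and 12.05 in YAP Tg mice and 7.50, 10.14 and 9.07 in Control mice, whose spread was wide (2.80, limma's adjusted p = 0.0415). The 5 calls became 0, 3 and 1 without Control mouse 1, 2 or 3 and 3, 6 and 2 without YAP Tg mouse 1, 2 or 3. Cat and Sod1 lost their call without any one Control mouse, Nox1 without Control mouse 1 or YAP Tg mouse 3, Sod3 without any mouse but YAP Tg mouse 2, and Duox2 without Control mouse 1 or 3 or YAP Tg mouse 1 or 3.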

How the data were processed

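Crypt RNA of 6 mice was hybridised to 1 Affymetrix array each. The authors deposited log2 signals per probe set; the submitters' processing notes name Expression Console, version 1.1, while background correction and normalization were not given in the sources used here. The log2 scale was read from the values (1.99 to 14.4). Of 35556 probe sets, 6617 numbered below the first annotated one were taken as array controls, 21789 had 1 symbol and 1621 several; where several served 1 of the 19938 genes, the brightest on average was kept. The platform's symbols were matched by Entrez identifier to RefSeq (GRCm38.p6) for 21698 probe sets, and 0 changed.

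YAP Tg minus Control was tested in R 4.3.3 with limma 3.58.1 (lmFit and eBayes without covariates, two-sided), adjusted over all genes by Benjamini and Hochberg at 0.05. The code was tested on simulated data. The number of arrays limits precision. Mice are separate per the titles. The members and the 7 pathway and 8 marker lists were chosen with earlier results of these data known; 108 of 114 pathway genes were measured, and the others, G6pdx among them, were not analysed here. Named genes were the 10, up to 4 per list with the smallest p among those called, and fixed examples; Glo1, Prdx4, Mgst2, Nqo2 and Duox2 were added after their values were seen. Alternatives left out each mouse, blocked by mouse number, rescaled, filtered, reweighted, averaged probe sets or moved the threshold. Same-numbered mice did not deviate together (r = -0.13, 0.01 and 0.10 for numbers 1, 2 and 3), so the numbers were not taken as pairs.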

Additional observations from a re-analysis of the deposited data

How the results depend on the processing

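Leaving out 1 mouse at a time gave 1 to 5 of the 10 genes lower and 0 to 1 higher, with 369 to 3889 of all genes lower and 669 to 2802 higher. Calls in the lists then ran from 2 to 5 (regulators), 1 to 9 (glutathione), 2 to 11 (thioredoxin), 1 to 4 (NADPH), 1 to 5 (heme and iron), 6 to 12 (detoxification) and 0 to 6 (superoxide and peroxide). With the mouse number as a replicate block, 1 of the 10 genes was lower, Nfe2l2 losing its call (limma's adjusted p = 0.0643), as were 727 of all genes, while 975 were higher; the thioredoxin list then held 3 calls and the superoxide and peroxide list 1. The block also ended the calls of Mafk, Slc3a2, Glo1, Msra, Sesn2, Abcb6, Cat, Sod1, Sod3 and Duox2. Glo1 lost its call with median centring, the filter on dim genes or the trended prior as well, and Sod3 with quantile normalization. Array weights gave 4 of the 10 genes lower, 3481 of all genes lower and 2459 higher, and 5, 10, 10 and 3 calls among regulators, glutathione, thioredoxin and NADPH genes. At a threshold of 0.1, 2101 of all genes were lower, and the thioredoxin and NADPH lists held 8 and 2 calls. At 0.01 the 10 genes held 1 lower (Nqo1) and 0 higher, all genes 386 lower and 661 higher, and the lists 1 (glutathione), 2 (thioredoxin), 1 (heme and iron), 7 (detoxification) and 0 (superoxide and peroxide). Quantile normalization and the filter on dim genes brought Gclc past the threshold (limma's adjusted p = 0.0495 and 0.0422). The direction held in all 13 refits for 8 of the 10 genes, the exceptions being Gclm and Gpx2. Not every refit could turn a direction. The block, the filter on dim genes, the trended prior and averaged probe sets left the change of each of the 10 genes as it was. Median centring moved all genes by the same small amount. The causes were not tested. The number of arrays, and for Slc7a11 its dim signal, limits what can be detected.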
